A study of Homo sapiens with 28 samples.

Results

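The 10 genes of the Jumonji family described here, KDM2B, KDM3A, KDM3B, KDM4A, KDM4B, KDM4C, KDM5A, KDM5B, KDM6B and JMJD6, were measured by RNA-Seq in PC3 and LNCaP prostate cancer cells. They were chosen by symbol, with earlier results of these data known, as 10 of the 19662 gene symbols in each expression table. All 10 passed the limit for expression in both cell lines. The series asked how the transcription factor ONECUT2 and low oxygen act together in prostate cancer cells with neuroendocrine features. PC3 cells, a line from a bone metastasis, were given a control siRNA (siCtrl) or an siRNA against ONECUT2 (siOC2), and LNCaP cells, an adenocarcinoma line from a lymph node metastasis, carried a lentiviral empty vector or Flag-tagged ONECUT2. Each was kept in normoxia or in hypoxia at 0.2% oxygen, which gives 4 groups of 2 libraries in each line and 16 libraries in all. Each siOC2 group pairs 1 library of siRNA 1 with 1 of siRNA 2, so its spread holds the difference between these siRNAs. No label says that the libraries of a group are separate cultures, so a P measures only the spread between these libraries.

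Jumonji (JmjC) enzymes remove methyl groups from histone lysines by an oxidation that consumes molecular oxygen and 2-oxoglutarate and needs iron, so oxygen is one of their substrates. Their genes can also be transcribed more when oxygen is low: HIF, the transcription factor that is stabilised in hypoxia, binds the core letters ACGTG or GCGTG in front of its target genes, and KDM3A and KDM4B are textbook examples of such targets.

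The HIF core was searched on both strands in the 250 bases before the first listed RefSeq transcription start of each gene, since the members are compared here for their response to oxygen. RefSeq promoters (GRCh38.p14) were found for 9 members, and each matched GRCh37, the build of the expression data, at a single place. Of these 9 promoters 7 (77.8%) held ACGTG or GCGTG, against 43.1% of the 27305 gene promoters of that length. The letters GCGTG stood in 77.8% of the member promoters and 31.9% of all, and ACGTG in 22.2% and 18.7%. Both cores hold the letters CG, which occurred 13 to 36 times in the member promoters. The shares were not matched for CG content, and its part in them was not tested. KDM2B and KDM3B were the members with no match. The windows below show 1 match for each member that had one, and the 2 palindromic ones of KDM4C, in GRCh37 coordinates and on the strand of the gene, with the core in capitals. In KDM4C the core shown lies in the palindrome CACGTG, the E-box core, which holds ACGTG on both strands, and KDM4B has such a palindrome farther from its start.
KDM3A, 26 bases before the start, chr2:86668456-86668484, plus strand: ccgggaggctgtGCGTGtcttgtgagagc
KDM4A, 79 bases before the start, chr1:44115729-44115757, plus strand: ggtggctgcggcGCGTGctcattggctgg
KDM4B, 77 bases before the start, chr19:4969035-4969063, plus strand: atgggcgctcggGCGTGgatccggcagcc
KDM4C, 63 bases before the start, chr9:6757898-6757926, plus strand: tgtttgtaagccCACGTGactcaccaagt
KDM4C, 31 bases before the start, chr9:6757930-6757958, plus strand: ggccccagcggtCACGTGacggcgcgcgc
KDM5A, 154 bases before the start, chr12:498624-498652, minus strand: caagggcgagctGCGTGgagtcgttggac
KDM5B, 64 bases before the start, chr1:202777597-202777625, minus strand: cggaggcgcacgGCGTGggcttgcggcga
KDM6B, 231 bases before the start, chr17:7737292-7737320, plus strand: ccttagaagggcGCGTGatccaaatgagt
The KDM3A window and both KDM4C windows lie inside annotated exons (GENCODE on GRCh37), and 19 of the 29 bases of the KDM5B window do. The windows of KDM4A, KDM4B, KDM5A and KDM6B overlap no annotated exon. A match is a description of these letters and not a measured binding site. The genes themselves lie at chr12:121866899-122018928 (KDM2B), chr2:86667770-86719839 (KDM3A), chr5:137688374-137772717 (KDM3B), chr1:44115820-44171189 (KDM4A), chr19:4969124-5153609 (KDM4B), chr9:6720863-7175648 (KDM4C), chr12:389223-498486 (KDM5A), chr1:202693623-202777615 (KDM5B), chr17:7737535-7758114 (KDM6B) and chr17:74708914-74722881 (JMJD6) (GRCh37).

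Expression was given as RPKM, a read density scaled to gene length and to the mapped reads of the library. Differences were fitted with limma on log2(RPKM + 0.1), in each line apart, over 12214 genes in PC3 and 12283 in LNCaP cells, so a log2 fold change understates the change of a gene with low RPKM. A gene is called here when its fold change is over 2 and its unadjusted P under 0.05, and the Benjamini-Hochberg adjusted p over all genes tested is given beside it. A rank comparison of 2 libraries with 2 could not go below P = 0.33 in an exact permutation test. The sum of RPKM per library was 401300 to 513800 in PC3 and 813200 to 961900 in LNCaP cells, so levels were not compared between the lines. The estimated depth was under 0.5 of that of siCtrl replicate 2 in normoxia in 3 PC3 libraries, siCtrl replicate 1 in normoxia (0.418), siCtrl replicate 2 in hypoxia (0.382) and siOC2 replicate 1 in hypoxia (0.348). In LNCaP cells no library was below 0.548 of the deepest.

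ONECUT2, the targeted gene, read 1.77 and 1.16 RPKM in normoxic and 0.648 and 0.550 in hypoxic siCtrl libraries, against 0.276 and 0.204 in normoxic and 0.125 and 0.214 in hypoxic siOC2 libraries. The siCtrl values were above the siOC2 values at each oxygen level. In LNCaP cells it read 2.89 and 7.86 in normoxia and 11.5 and 3.09 in hypoxia with the empty vector, and the table holds no value for it in the ONECUT2 libraries, so overexpression could not be checked. Of 10 HIF-induced genes chosen as a check of the oxygen labels, 10 were higher and 9 called in hypoxic siCtrl PC3 libraries, and all 9 that were tested were called in LNCaP libraries with the empty vector. The 4 PC3 markers (CAV1, CD44, ANXA1 and VIM) summed to 516 to 1333 RPKM in PC3 and 27.1 to 60.9 in LNCaP libraries.

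**Figure D1:**
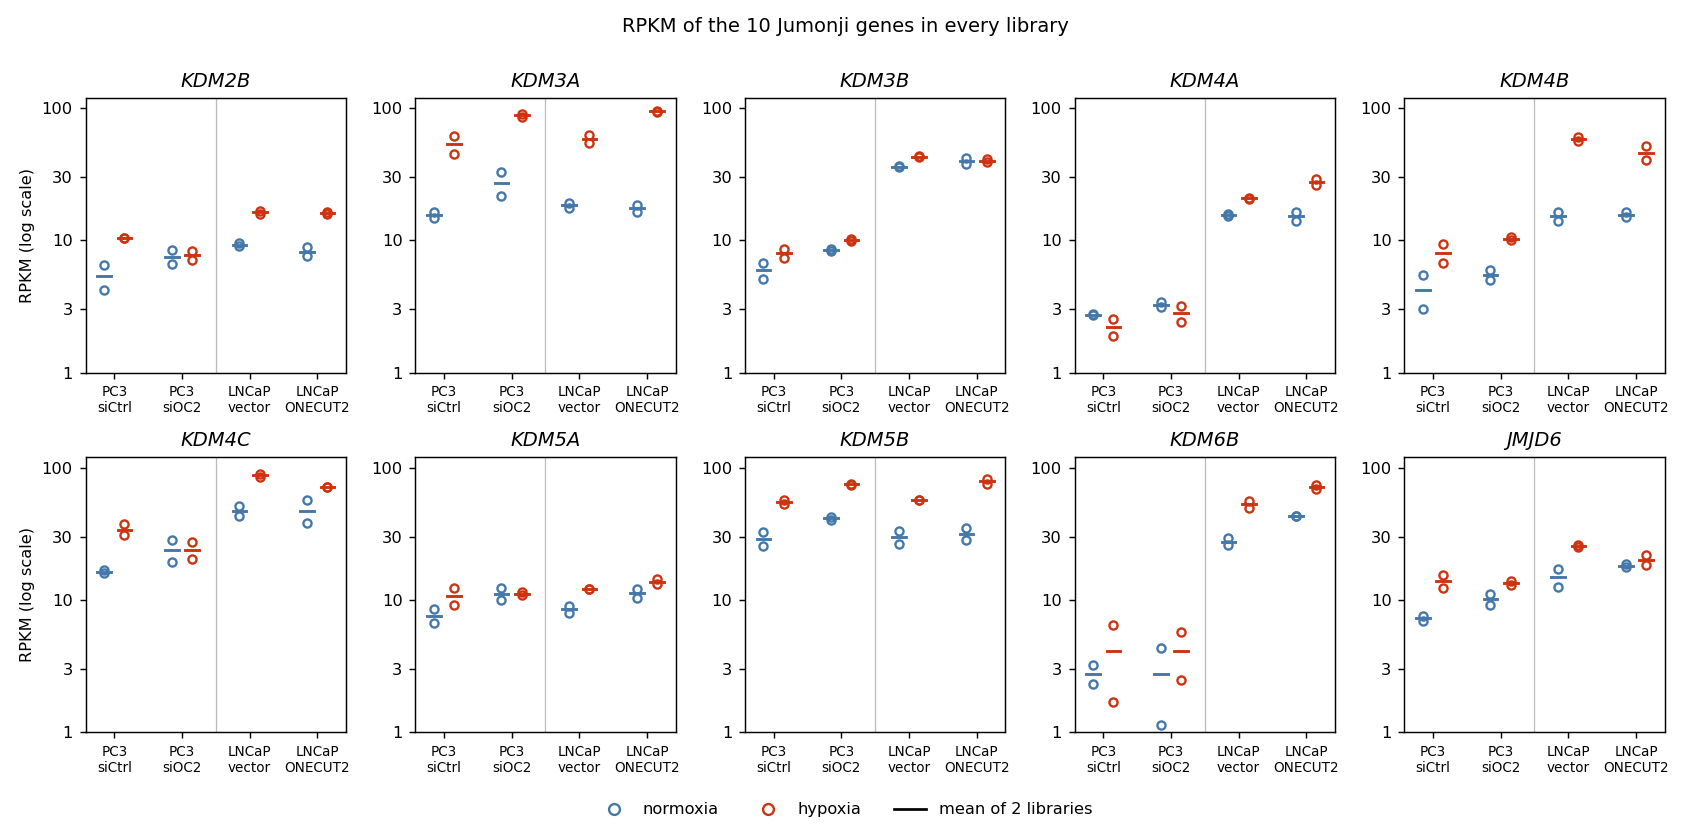
RPKM of each gene (log axis) in the 16 libraries, by cell line and arm, with normoxia in blue, hypoxia in red and a bar at the mean of 2 libraries. KDM3A stood at 14.7 to 33.1 RPKM in the 8 normoxic libraries and at 44.8 to 95.4 in the 8 hypoxic ones.

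Most members rose in hypoxic LNCaP cells, and KDM3A passed the call limits in every arm of both lines. In LNCaP cells with the empty vector 9 of 10 members rose at an adjusted p under 0.05, where 18.2% of all genes did, and 2 of them, KDM3A and KDM4B, also passed the call limits, where 5.6% of genes did. In siCtrl PC3 cells 2 members, KDM3A and KDM4C, were called, where 2.23% of genes were called higher. In siCtrl PC3 cells no member had an adjusted p under 0.05 in the limma fit, where 0.27% of genes did, and 6 had an unadjusted P under 0.05 in the higher direction, where 4.03% of genes did. This count depended on the groups that share the estimate of the spread. With the siCtrl groups alone in the fit 5 members passed an adjusted p of 0.05 in limma, KDM3A (4.60e-04), KDM4C (0.00753), KDM5B (0.0124), JMJD6 (0.0207) and KDM2B (0.0316), where 4.18% of genes did, and with the replicate block KDM3A passed (0.0330). The median log2 fold change of the 10 members was 0.93 in siCtrl PC3 cells beside -0.066 over all genes tested, and 0.85 in LNCaP cells with the empty vector beside 0.025. All 10 members stood higher in both hypoxic than in both normoxic LNCaP libraries with the empty vector, as did 37.1% of genes, and 8 did in siCtrl PC3 libraries, as did 22.1% of genes, with KDM4A the other way round, as were 32.9% of genes. Without overlap, 5 members stood higher in hypoxic siOC2 PC3 libraries, as did 896 of 12214 genes. With ONECUT2, 8 members did in LNCaP libraries, as did 5160 of 12283 genes. The count of called members in siCtrl PC3 cells rests on single libraries. It was 5 without siCtrl replicate 2 in normoxia, 4 without siCtrl replicate 2 in hypoxia, and 1 without siCtrl replicate 1 in hypoxia or without the 3 shallow libraries. The LNCaP count was 4 without empty vector replicate 1 or 2 in normoxia.

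KDM3A, which removes mono- and dimethylation from lysine 9 of histone H3, a mark of silent chromatin, had the clearest response. KDM3A stood at 16.4 and 14.7 RPKM in normoxia and 61.7 and 44.8 in hypoxia in siCtrl PC3 cells, and at 33.1 and 21.5 in normoxia and 90.7 and 85.95 in hypoxia in siOC2 cells. LNCaP cells with the empty vector had 19.2 and 17.6 RPKM in normoxia and 62.4 and 54.9 in hypoxia, and those with ONECUT2 had 16.4 and 18.5 in normoxia and 93.97 and 95.4 in hypoxia. Hypoxic and normoxic values did not overlap in any of the 4 arms, and the hypoxic values were highest in the siOC2 and ONECUT2 libraries. Its log2 fold change was 1.75 ± 0.30 (SE) in siCtrl (adjusted p = 0.0788, limma) and 1.72 ± 0.30 (SE) in siOC2 PC3 cells (adjusted p = 0.263), 3.37-fold and 3.303-fold. Averaged over both PC3 arms it was 1.74 ± 0.21 (SE) with an adjusted p of 0.0114 in limma, where 0.581% of genes passed in the higher direction. In LNCaP cells it was 1.67 ± 0.11 (SE) with the empty vector (adjusted p = 5.16e-05, limma) and 2.44 ± 0.11 (SE) with ONECUT2 (adjusted p = 1.49e-05), the latter 5.42-fold. The averaged PC3 change stayed between 1.58 and 1.89 in every alternative, but its adjusted p in limma was 0.0779 and 0.0886 without siCtrl replicate 1 or 2 in normoxia, 0.123 and 0.0717 without siCtrl replicate 1 or 2 in hypoxia, and 0.904 without the 3 shallow libraries.

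KDM3B, the paralog with activity on the same lysine, differed little. The siCtrl PC3 libraries gave KDM3B values of 5.13 and 6.77 RPKM in normoxia and 8.61 and 7.31 in hypoxia, and the siOC2 libraries gave 8.27 and 8.63 in normoxia and 9.91 and 10.3 in hypoxia. With the empty vector KDM3B read 35.6 and 36.3 RPKM in normoxic and 42.8 and 43.2 in hypoxic LNCaP cells, and with ONECUT2 it read 42.1 and 37.9 in normoxic and 40.9 and 39.2 in hypoxic cells. Normoxic and hypoxic values overlapped in LNCaP cells with ONECUT2 and not in the other 3 arms. Its log2 fold changes were 0.42 ± 0.28 (SE) in siCtrl, 0.25 ± 0.28 (SE) in siOC2, 0.26 ± 0.10 (SE) with the empty vector and 0.0034 ± 0.10 (SE) with ONECUT2, and no arm passed a limit (adjusted p in limma = 0.823, 0.833, 0.0687 and 0.982). With upper-quartile scaling the value with ONECUT2 was -0.11.

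The KDM4 enzymes act on trimethylated lysines 9 and 36 of histone H3. KDM4B had a large difference in LNCaP cells. In PC3 cells KDM4B read 3.02 and 5.42 RPKM in the normoxic and 9.32 and 6.69 in the hypoxic siCtrl libraries, and 5.01 and 5.97 in the normoxic and 10.04 and 10.54 in the hypoxic siOC2 libraries. In LNCaP cells the values were 16.3 and 14.1 RPKM in normoxia and 56.1 and 59.99 in hypoxia with the empty vector, and 14.9 and 16.4 in normoxia and 40.2 and 51.8 in hypoxia with ONECUT2. Hypoxic values were above normoxic ones in each arm, and in LNCaP cells the empty vector libraries reached the higher level. KDM4B rose 3.81-fold with the empty vector, a log2 fold change of 1.93 ± 0.14 (SE) (adjusted p = 7.95e-05, limma), and 2.91-fold with ONECUT2, 1.54 ± 0.14 (SE) (adjusted p = 3.33e-04). In PC3 cells its log2 fold change was 0.95 ± 0.35 (SE) in siCtrl and 0.90 ± 0.35 (SE) in siOC2, just under the fold limit, with adjusted p of 0.577 and 0.719 in limma. In siCtrl it passed the call limits without siCtrl replicate 2 in normoxia (1.36) or siCtrl replicate 2 in hypoxia (1.18).

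KDM4C was the member whose hypoxia difference varied most with the arm in PC3 cells. KDM4C stood at 16.9 and 15.9 RPKM in normoxia and 37.4 and 30.7 in hypoxia in siCtrl PC3 cells, and at 28.2 and 19.4 in normoxia and 20.3 and 27.5 in hypoxia in siOC2 cells. LNCaP cells with the empty vector had 51.5 and 43.4 RPKM in normoxia and 89.6 and 85.8 in hypoxia, and those with ONECUT2 had 56.8 and 38.1 in normoxia and 71.5 and 71.4 in hypoxia. In siCtrl cells both hypoxic values were above both normoxic ones, while in siOC2 cells the hypoxic pair fell within the range of the normoxic pair. From normoxia to hypoxia KDM4C fell with siRNA 1 (28.2 to 20.3, the latter from a shallow library) and rose with siRNA 2 (19.4 to 27.5). Its log2 fold change was 1.04 ± 0.30 (SE) in siCtrl, past the call limits (adjusted p = 0.372, limma). In siOC2 it was 0.016 ± 0.30 (SE), an average over siRNAs that went opposite ways. The siCtrl call was lost without siCtrl replicate 1 in hypoxia (0.90) and without the 3 shallow libraries (1.23). In LNCaP cells KDM4C rose at an adjusted p of 0.00688 with the empty vector, by 0.89 ± 0.18 (SE), and of 0.0332 with ONECUT2, by 0.62 ± 0.18 (SE) (limma). With ONECUT2 the adjusted p in limma passed 0.05 in 7 of 14 alternatives, up to 0.129 without ONECUT2 replicate 2 in hypoxia. It was 0.123 without ONECUT2 replicate 1 in hypoxia, 0.107 without ONECUT2 replicate 2 in normoxia, and 0.0508 and 0.0509 without empty vector replicate 1 or 2 in hypoxia.

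KDM4A was the only member with lower values in hypoxic PC3 cells. The siCtrl PC3 libraries gave KDM4A values of 2.78 and 2.702 RPKM in normoxia and 2.52 and 1.88 in hypoxia, and the siOC2 libraries gave 3.14 and 3.404 in normoxia and 3.17 and 2.43 in hypoxia. With the empty vector KDM4A read 15.8 and 15.2 RPKM in normoxic and 21.1 and 20.6 in hypoxic LNCaP cells, and with ONECUT2 it read 13.99 and 16.4 in normoxic and 26.3 and 29.2 in hypoxic cells. In siCtrl PC3 cells both hypoxic values were under both normoxic ones, and in LNCaP cells both were above them in each arm. The PC3 log2 fold changes of -0.32 ± 0.34 (SE) and -0.23 ± 0.34 (SE) were no larger than their errors (adjusted p = 0.920 and 0.886, limma). In LNCaP cells KDM4A rose by 0.42 ± 0.12 (SE) with the empty vector (adjusted p = 0.0249, limma) and by 0.87 ± 0.12 (SE) with ONECUT2 (adjusted p = 0.00178). The first of these had an adjusted p in limma of 0.0710 without empty vector replicate 2 in normoxia, and of 0.132 and 0.107 without replicate 1 or 2 in hypoxia. A read-through gene on the same strand (ENSG00000284989), which is not in the RPKM table, covers 40.2% of the exonic bases of KDM4A, so reads of the pair may not be told apart.

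KDM5B and KDM5A remove methylation from lysine 4 of histone H3, a mark of active promoters. In PC3 cells KDM5B read 25.5 and 32.4 RPKM in the normoxic and 57.4 and 53.2 in the hypoxic siCtrl libraries, and 40.4 and 42.7 in the normoxic and 74.4 and 75.1 in the hypoxic siOC2 libraries. In LNCaP cells the values were 33.2 and 26.6 RPKM in normoxia and 56.6 and 57.2 in hypoxia with the empty vector, and 28.2 and 34.8 in normoxia and 82.6 and 75.5 in hypoxia with ONECUT2. KDM5B did not overlap between the oxygen levels in any arm. Its log2 fold change was 0.94 ± 0.24 (SE) in siCtrl and 0.85 ± 0.24 (SE) in siOC2 PC3 cells, under the fold limit and with adjusted p of 0.288 and 0.719 in limma. In LNCaP cells it rose by 0.93 ± 0.14 (SE) with the empty vector (adjusted p = 0.00223, limma) and, past the call limits, by 1.33 ± 0.14 (SE) with ONECUT2 (adjusted p = 6.33e-04). KDM5A stood at 6.64 and 8.48 RPKM in normoxia and 9.12 and 12.4 in hypoxia in siCtrl PC3 cells, and at 9.92 and 12.4 in normoxia and 10.9 and 11.4 in hypoxia in siOC2 cells. LNCaP cells with the empty vector had 8.99 and 8.01 RPKM in normoxia and 12.1 and 12.2 in hypoxia, and those with ONECUT2 had 12.1 and 10.4 in normoxia and 13.2 and 14.3 in hypoxia. KDM5A differed less than KDM5B in each arm. It rose by 0.51 ± 0.12 (SE) in LNCaP cells with the empty vector (adjusted p = 0.0162, limma), and was 0.29 ± 0.12 (SE) with ONECUT2, 0.49 ± 0.29 (SE) in siCtrl and 0.0073 ± 0.29 (SE) in siOC2 cells (adjusted p = 0.119, 0.798 and 0.998). The adjusted p with the empty vector was 0.0605 in limma without empty vector replicate 2 in normoxia, and 0.0889 and 0.0910 without replicate 1 or 2 in hypoxia.

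KDM6B removes methylation from lysine 27 of histone H3, the mark laid down by the Polycomb enzyme EZH2. The siCtrl PC3 libraries gave KDM6B values of 2.31 and 3.19 RPKM in normoxia and 1.698 and 6.48 in hypoxia, and the siOC2 libraries gave 4.34 and 1.14 in normoxia and 2.48 and 5.72 in hypoxia. With the empty vector KDM6B read 26.1 and 29.2 RPKM in normoxic and 55.8 and 49.8 in hypoxic LNCaP cells, and with ONECUT2 it read 43.3 and 43.1 in normoxic and 69.3 and 73.8 in hypoxic cells. The PC3 libraries of a group lay far apart and the oxygen levels overlapped, whereas in LNCaP cells the replicates were close and did not overlap. From normoxia to hypoxia KDM6B fell with siRNA 1 (4.34 to 2.48, the latter from a shallow library) and rose with siRNA 2 (1.14 to 5.72). KDM2B and KDM5A also went opposite ways between the siRNAs, by less. In PC3 cells the log2 fold changes of 0.29 ± 0.77 (SE) and 0.73 ± 0.77 (SE) had errors of their own size or larger, and the siCtrl value became -0.87 without the 3 shallow libraries and -0.65 without siCtrl replicate 2 in hypoxia. In LNCaP cells KDM6B rose by 0.93 ± 0.10 (SE) with the empty vector (adjusted p = 5.76e-04, limma) and by 0.73 ± 0.10 (SE) with ONECUT2 (adjusted p = 0.00230).

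KDM2B removes methylation from lysine 36 of histone H3 and brings Polycomb complexes to CpG islands. In PC3 cells KDM2B read 4.21 and 6.53 RPKM in the normoxic and 10.4 and 10.47 in the hypoxic siCtrl libraries, and 6.58 and 8.41 in the normoxic and 7.16 and 8.35 in the hypoxic siOC2 libraries. In LNCaP cells the values were 9.001 and 9.58 RPKM in normoxia and 15.9 and 16.8 in hypoxia with the empty vector, and 8.87 and 7.58 in normoxia and 15.8 and 16.3 in hypoxia with ONECUT2. In siCtrl cells both hypoxic values were above the normoxic ones, in siOC2 cells they overlapped, and in LNCaP cells both arms were apart. Its log2 fold change was 0.98 ± 0.31 (SE) in siCtrl (adjusted p = 0.455, limma) and 0.055 ± 0.31 (SE) in siOC2 PC3 cells, and in LNCaP cells it rose by 0.81 ± 0.12 (SE) and 0.96 ± 0.12 (SE) (adjusted p = 0.00193 and 0.00127). JMJD6, a JmjC protein that hydroxylates lysines of splicing proteins, was measured beside the demethylases. JMJD6 stood at 7.51 and 6.99 RPKM in normoxia and 15.5 and 12.4 in hypoxia in siCtrl PC3 cells, and at 9.18 and 11.1 in normoxia and 13.1 and 13.9 in hypoxia in siOC2 cells. LNCaP cells with the empty vector had 12.6 and 17.2 RPKM in normoxia and 26.1 and 25.01 in hypoxia, and those with ONECUT2 had 18.6 and 17.7 in normoxia and 18.2 and 21.8 in hypoxia. Its hypoxic values were apart from the normoxic ones in both PC3 arms and with the empty vector, and overlapped them with ONECUT2. JMJD6 rose by 0.79 ± 0.16 (SE) in LNCaP cells with the empty vector (adjusted p = 0.00731, limma; 0.0501 without empty vector replicate 1 in hypoxia), and was 0.13 ± 0.16 (SE) with ONECUT2. In PC3 cells it was 0.93 ± 0.27 (SE) in siCtrl and 0.41 ± 0.27 (SE) in siOC2 (adjusted p = 0.380 and 0.748).

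**Figure D2:**
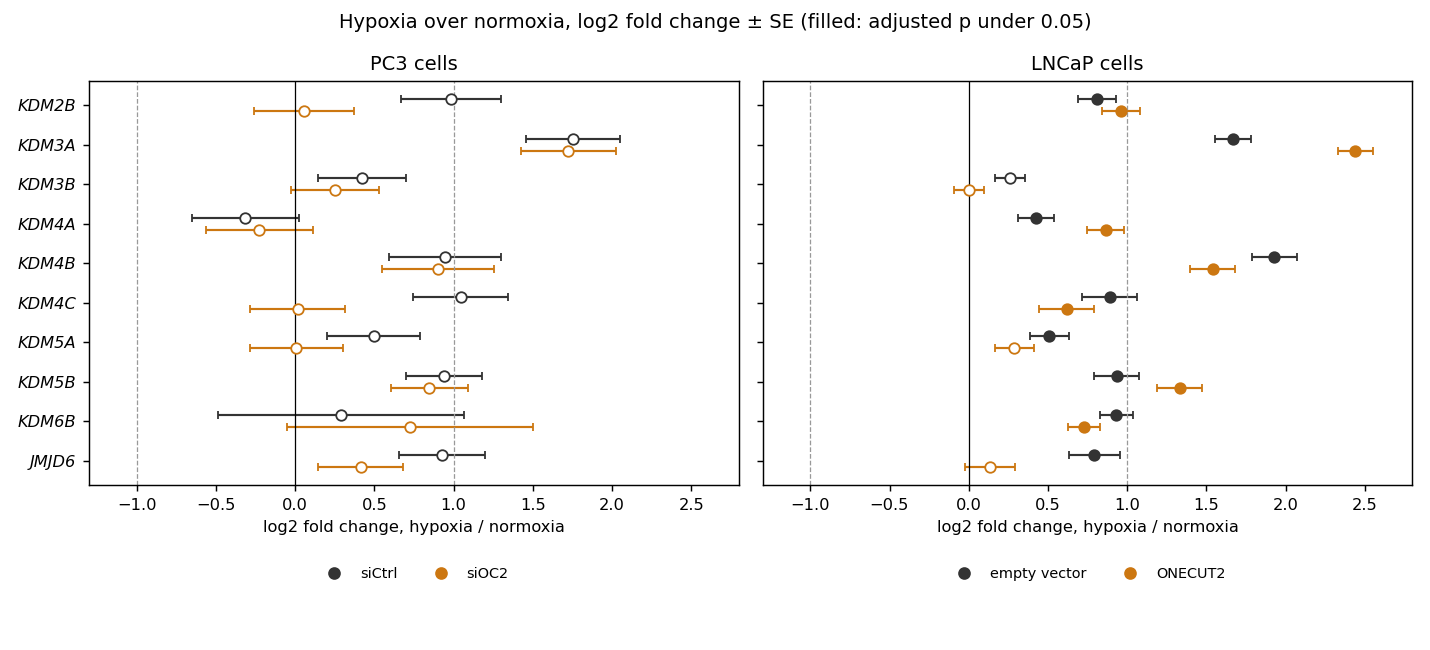
Log2 fold change of hypoxia over normoxia with its SE (x axis) for the 10 genes in PC3 cells (left) and LNCaP cells (right), by arm, with filled points at an adjusted p under 0.05 and dashed lines at a fold of 2. KDM3A lay past the fold line in the 4 arms, from 1.67 to 2.44, and the errors were larger in PC3 than in LNCaP cells.

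In the altered arms, 1 member (KDM3A) was called in siOC2 PC3 cells, where 1.11% of genes were called higher, and 3 (KDM3A, KDM4B and KDM5B) in LNCaP cells with ONECUT2, where 5.48% were. With ONECUT2, 7 members rose at an adjusted p under 0.05, where 18.4% of genes did. Averaged over the arms, 1 PC3 member was called (background 1.6%) and 3 LNCaP members (background 4.93%), the same 3 as with ONECUT2, and 9 LNCaP members, KDM3B excepted, had an adjusted p under 0.05 (background 27.3%). The averaged log2 fold changes of the PC3 members other than KDM3A were 0.92 for KDM4B, 0.89 for KDM5B, 0.67 for JMJD6, 0.53 for KDM4C, 0.52 for KDM2B, 0.51 for KDM6B, 0.34 for KDM3B, 0.25 for KDM5A and -0.27 for KDM4A, with adjusted p in limma from 0.0754 to 0.708. The LNCaP averages were 2.05 for KDM3A, 1.73 for KDM4B, 1.13 for KDM5B, 0.89 for KDM2B, 0.83 for KDM6B, 0.75 for KDM4C, 0.64 for KDM4A, 0.46 for JMJD6, 0.40 for KDM5A and 0.13 for KDM3B. With the empty vector 9 of 10 members rose at an adjusted p under 0.05. Among these were all 7 with a HIF core in the windows above and, of the 2 without, KDM2B but not KDM3B. In siCtrl PC3 cells members with a core ranged from -0.32 (KDM4A) to 1.75 (KDM3A). Those without stood at 0.98 (KDM2B) and 0.42 (KDM3B). This is a description of few genes. The spread of the PC3 fit holds the difference between the siRNAs, and siOC2 libraries of the same siRNA deviated together (r = 0.62 across 12214 genes, which are not independent). With a term for the siRNA, added after the data were seen, 3 members had an adjusted p under 0.05 in siCtrl cells, where 2.42% of genes passed in that direction. They were KDM3A (adjusted p = 6.98e-04, limma), KDM4C (0.0416) and KDM5B (0.0343). In siOC2 cells it was KDM3A alone, at 0.00232, where 0.712% of genes passed. For the average of both arms they were KDM3A (1.76e-05), KDM4B (0.0162), KDM5B (0.00356) and JMJD6 (0.0272), where 3.99% of genes passed.

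The ONECUT2 comparison set libraries labelled for more ONECUT2 over those labelled for less, at each oxygen level. It is called high over low ONECUT2 here, siCtrl over siOC2 in PC3 cells and ONECUT2 over empty vector in LNCaP cells. In LNCaP cells the higher level rests on the labels. No member was called in any of these 4 comparisons. In PC3 cells at an unadjusted P under 0.05, KDM3A alone was lower in siCtrl at each oxygen level, where 6.66% of genes were in normoxia and 5.81% in hypoxia, and no member was higher. The background of calls was 1.59% higher and 3.62% lower in normoxic PC3 cells, 3.95% and 3.55% in hypoxic PC3 cells, 2.81% and 0.48% in normoxic LNCaP cells, and 3.7% and 0.773% in hypoxic LNCaP cells. At an adjusted p under 0.05, KDM6B in normoxia and KDM6B and KDM3A in hypoxia were higher with ONECUT2 in LNCaP cells, where 3.56% and 6.72% of genes passed in that direction.

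KDM6B rose with ONECUT2 in LNCaP cells by 0.64 ± 0.10 (SE) in normoxia (adjusted p = 0.0135, limma) and by 0.44 ± 0.10 (SE) in hypoxia (adjusted p = 0.0329), 1.56-fold and 1.36-fold. Both ONECUT2 libraries were above both empty vector libraries at each oxygen level. The normoxic adjusted p in limma was 0.0799 without ONECUT2 replicate 1 in normoxia, and 0.0748 with only the groups compared in the fit. The hypoxic one was 0.0553 with the replicate block, 0.101 and 0.243 without empty vector replicate 1 or 2 in hypoxia, and 0.151 and 0.153 without ONECUT2 replicate 1 or 2 in hypoxia. KDM3A rose with ONECUT2 in hypoxic LNCaP cells by 0.69 ± 0.11 (SE) (adjusted p = 0.00801, limma), while in normoxia it was -0.077 ± 0.11 (SE) with overlapping libraries. Its adjusted p in limma was 0.0830 without empty vector replicate 2 in hypoxia, and 0.0755 and 0.0534 without ONECUT2 replicate 1 or 2 in hypoxia. In PC3 cells the KDM3A difference was -0.78 ± 0.30 (SE) in normoxia and -0.75 ± 0.30 (SE) in hypoxia, that is, lower where ONECUT2 was higher (adjusted p = 0.487 and 0.363 in limma). Without siOC2 replicate 2 in normoxia the normoxic value passed the call limits (-1.09).

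The remaining LNCaP differences in hypoxia went both ways. KDM5B (0.47 ± 0.14 (SE)) and KDM4A (0.41 ± 0.12 (SE)) were higher with ONECUT2 without overlap, at adjusted p of 0.0657 and 0.0574 in limma, which miss 0.05. Each was over 0.05 in most of the 14 alternatives and under it in 4. Among the latter were 0.0129 and 0.0277 in limma with only the groups compared, and 0.0338 and 0.0242 with upper-quartile scaling. KDM4B (-0.35), JMJD6 (-0.36), KDM4C (-0.30) and KDM3B (-0.10) had both ONECUT2 libraries under both empty vector libraries, with adjusted p from 0.156 to 0.527. For KDM4C it was 0.0289 in limma with only the groups compared, and over 0.05 in all other alternatives. KDM5A was 0.18 ± 0.12 (SE) and KDM2B -0.025, the latter with overlapping libraries. In normoxia KDM5A (0.40 ± 0.12 (SE), adjusted p = 0.0983, limma), JMJD6 (0.30) and KDM3B (0.15) lay higher and KDM2B (-0.18) lower without overlap, where 17.9% of genes were higher and 31.5% lower. For KDM5A the adjusted p in limma was 0.04995 with upper-quartile scaling, and over 0.05 in all other alternatives. KDM4A (-0.032), KDM4B (0.043), KDM4C (-0.023) and KDM5B (0.074) overlapped. Upper-quartile scaling moved the median of all genes by 0.11 in this comparison and turned the values of KDM3A, KDM4A and KDM4C above 0. In hypoxic cells 5 members were above and 4 below without overlap, where 31.6% and 34.8% of all genes were. Of the LNCaP markers, KLK3 (-0.40), KLK2 (-0.60) and FOLH1 (-0.45) were lower with ONECUT2 in hypoxia at an adjusted p under 0.05. In that direction 592 of 12283 genes passed. Of the 6 LNCaP markers 4 were higher and 2 lower in hypoxia with the empty vector. There KLK3 (0.93) and KLK2 (1.16) rose at an adjusted p under 0.05, while TMPRSS2 (0.060) and FOLH1 (-0.086, lower without overlap) did not pass. VIM (1.05), a PC3 marker, was called higher in hypoxia than in normoxia within the ONECUT2 libraries. No PC3 marker was called for ONECUT2 over empty vector at either oxygen level. The part of these markers in the differences of the members was not tested. In bulk RNA, fewer cells of a kind and less RNA per cell cannot be told apart.

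In normoxic PC3 cells 9 members were lower in siCtrl than in siOC2 libraries, 8 of them without overlap, where 31.4% of genes were lower and 15% higher without overlap. Their median log2 fold change was -0.50 beside -0.13 over all genes. The values were -0.56 for KDM5A, -0.53 for KDM5B, -0.51 for KDM3B, -0.51 for KDM4C, -0.50 for KDM2B, -0.47 for JMJD6, -0.42 for KDM4B and -0.25 for KDM4A, with SE of 0.24 to 0.35 and adjusted p of 0.56 or more in limma, and KDM6B stood at 0.27 ± 0.77 (SE). In hypoxia 7 members were lower in siCtrl, 4 of them without overlap, where 18.8% of genes were lower and 19.6% higher without overlap, namely KDM3A, KDM5B (-0.44), KDM4B (-0.38) and KDM3B (-0.34). KDM4A (-0.34), KDM6B (-0.17) and KDM5A (-0.069) overlapped. KDM4C (0.52) and KDM2B (0.43) were higher in siCtrl without overlap, and JMJD6 was at 0.042 (-0.032 with upper-quartile scaling). With the siRNA term no member passed an adjusted p of 0.05 in limma at either oxygen level, where 4.11% and 4.76% of genes passed in the lower direction, and KDM3A came nearest (0.0841 and 0.0698). Of the PC3 markers, CD44 (1.03) and VIM (2.26) were called higher in siCtrl than in siOC2 libraries in hypoxia, CAV1 was at 1.26 and not called, and ANXA1 lay the other way without overlap (-0.41), also not called. Their part in the members' differences was not tested.

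**Figure D3:**
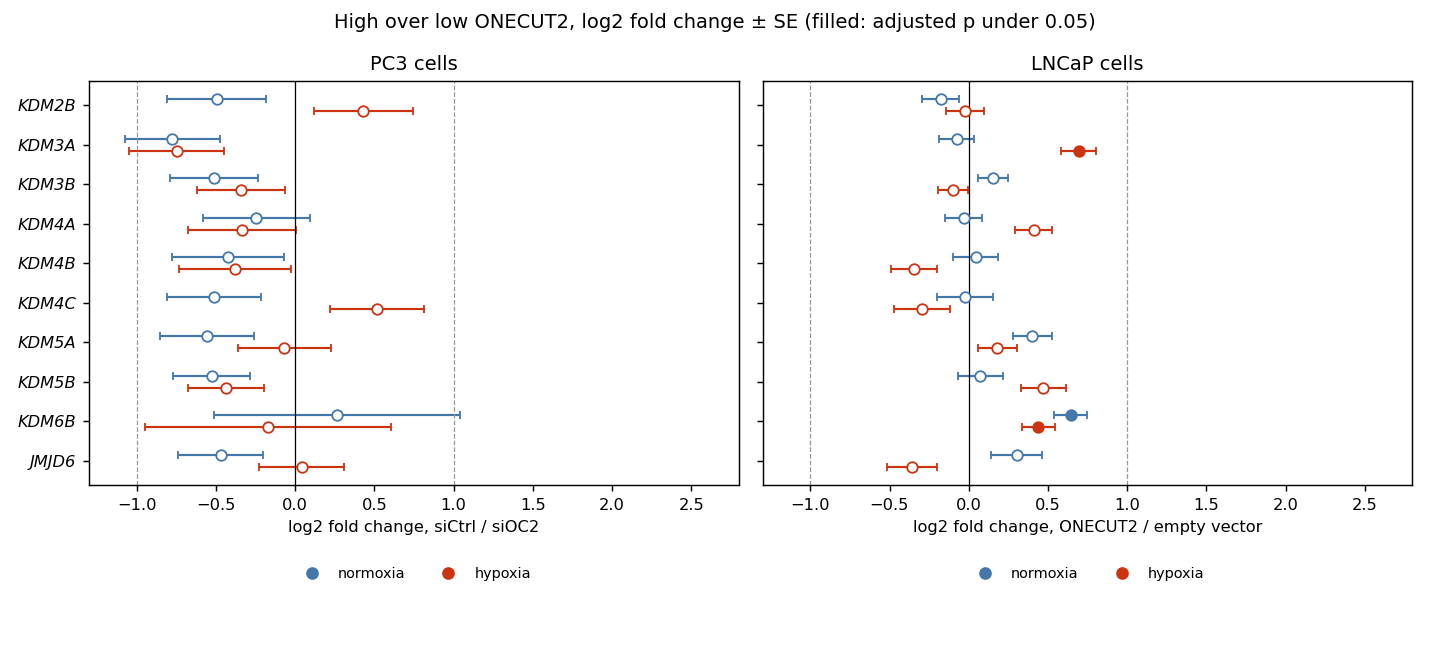
Log2 fold change with its SE (x axis) of high over low ONECUT2, siCtrl over siOC2 in PC3 cells (left) and ONECUT2 over empty vector in LNCaP cells (right), in normoxia (blue) and hypoxia (red), with filled points at an adjusted p under 0.05 and dashed lines at a fold of 2. KDM3A lay at -0.78 and -0.75 in PC3 cells, and at -0.077 in normoxic and 0.69 in hypoxic LNCaP cells.

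The interaction asks whether the hypoxia difference changes with ONECUT2. In PC3 cells KDM4C alone passed the call limits, where 0.696% of genes did in that direction. Its hypoxia response was larger in siCtrl than in siOC2 cells by 1.03 ± 0.42 (SE) (adjusted p = 0.9998, limma). In siOC2 cells KDM4C fell in hypoxia with siRNA 1 and rose with siRNA 2. The call was lost at a pseudocount of 1 (0.99), with upper-quartile scaling (0.93) and without the 3 shallow libraries (0.99). Without single libraries it was lost in 6 cases, with values of 1.07 and 0.99 without siCtrl replicate 1 or 2 in normoxia, 0.89 and 1.17 without siCtrl replicate 1 or 2 in hypoxia, 0.76 without siOC2 replicate 1 in normoxia and 0.81 without siOC2 replicate 1 in hypoxia. KDM2B had the next largest interaction (0.93 ± 0.44 (SE), adjusted p = 0.9998, limma), and it passed the limits without siCtrl replicate 2 in normoxia (1.24) or siOC2 replicate 2 in hypoxia (1.04). JMJD6 (0.51), KDM5A (0.49), KDM6B (-0.44), KDM3B (0.17), KDM5B (0.092), KDM4A (-0.090), KDM4B (0.047) and KDM3A (0.029) did not pass, with SE from 0.34 to 1.10. For KDM3A the interaction of 0.029 ± 0.42 (SE) means that the log2 fold changes of the PC3 arms were close, with an error too wide to call them equal.

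In LNCaP cells no interaction of a member was called, against a background of 2.34% higher and 1.35% lower. The hypoxia response of KDM3A was larger with ONECUT2 by 0.77 ± 0.16 (SE) (adjusted p = 0.0929, limma), and that of KDM4A by 0.44 ± 0.16 (SE) (adjusted p = 0.242). For JMJD6 it was smaller with ONECUT2, at -0.66 ± 0.22 (SE) (adjusted p = 0.210, limma). The values of KDM5B (0.40), KDM4B (-0.39), KDM4C (-0.27), KDM3B (-0.26), KDM5A (-0.22), KDM6B (-0.20) and KDM2B (0.15) had an unadjusted P over 0.05.

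Within the normoxic siCtrl PC3 libraries, ordered by mean RPKM, which is scaled to gene length, KDM5B was highest (28.98 ± 4.88, SD, n = 2), followed by KDM4C (16.4 ± 0.669) and KDM3A (15.6 ± 1.19), which overlapped, and KDM5A (7.56 ± 1.31) and JMJD6 (7.25 ± 0.371), which also overlapped. KDM3B (5.95 ± 1.16), KDM2B (5.37 ± 1.65), KDM4B (4.22 ± 1.700), KDM6B (2.75 ± 0.625) and KDM4A (2.74 ± 0.0540) followed, each overlapping its neighbour. In normoxic LNCaP libraries with the empty vector KDM4C (47.5 ± 5.71) was highest and KDM3B (35.9 ± 0.482) followed, each without overlap with the next. KDM5B (29.9 ± 4.67) and KDM6B (27.7 ± 2.13) came next and overlapped each other. KDM3A (18.4 ± 1.13) stood below them without overlap. KDM4A (15.5 ± 0.375), KDM4B (15.2 ± 1.54) and JMJD6 (14.9 ± 3.26) overlapped each other, and KDM2B (9.29 ± 0.407) and KDM5A (8.499 ± 0.694) were lowest. Levels across the lines are on different tables and were not tested.

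The pattern of KDM3A, the member called in the control arms of both lines, was compared with that of 10948 genes tested in both lines by the smaller of its correlations over the 8 libraries of each line. The closest were PFKFB3, which makes the glycolytic activator fructose-2,6-bisphosphate (0.96), KDM5B (0.95), PDK1, a kinase that inhibits pyruvate dehydrogenase in the mitochondrion (0.94), RSBN1 (0.94) and ENO2, a glycolytic enolase (0.94). Libraries of a line share their oxygen groups, so these are descriptions with no test.

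The lists of related enzymes had medians nearer to that of all genes. Members and lists were chosen with earlier results of these data known, and the part of that choice in the difference was not tested. Of 15 other JmjC proteins tested in LNCaP cells with the empty vector, 5 rose at an adjusted p under 0.05 in hypoxia, where 18.2% of genes did. These were KDM2A, the H3 lysine 36 demethylase (0.66 on the log2 scale), KDM6A, the paralog of KDM6B (0.63), KDM5C (0.56), JARID2, a Polycomb partner without activity (0.56), and JMJD8 (0.48). RIOX2, a ribosomal oxygenase listed as MINA, fell (-0.56). The median of the list was 0.25 beside 0.025 over all genes. In siCtrl PC3 cells none of the 15 tested was called or had an adjusted p under 0.05 in limma, 1 had an unadjusted P under 0.05, and the median was -0.0035. In siOC2 cells RIOX2 (-1.12) and JMJD4 (-1.45) fell past the call limits, where 287 of 12214 genes did. Averaged over both PC3 arms RIOX2 (-1.05), JMJD4 (-1.05), JMJD7 (-1.67) and the methyltransferase SETD1B (-1.05) fell past the call limits, where 2.05% of genes did. KDM1A, a demethylase that uses flavin in place of iron, rose in hypoxic LNCaP cells with the empty vector (0.38, adjusted p = 0.0280, limma) and its paralog KDM1B fell (-0.50, adjusted p = 0.0168).

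Among the histone lysine methyltransferases, the enzymes that place these marks, 5 of 19 tested rose in hypoxia at an adjusted p under 0.05 in LNCaP cells with the empty vector. Of all genes 18.2% did. The 5 were DOT1L (0.99), KMT2A (0.60), SETD1A (0.57), NSD2 (listed as WHSC1, 0.43) and EHMT2 (0.41). KMT2C was listed at 0 in both hypoxic libraries with the empty vector, at 12.1 and 8.95 RPKM in the normoxic ones and at 16.1 and 20.5 in the hypoxic ones with ONECUT2, and an exact 0 can be a failed estimate, so no fold is given for it. EZH2, which places the mark that KDM6B removes, did not pass (0.32, adjusted p = 0.0928, limma). The median of the list was 0.31 in LNCaP and 0.079 in siCtrl PC3 cells, where 0 of 18 were called or had an unadjusted P under 0.05 (limma). With ONECUT2, 6 of 15 other JmjC proteins rose in hypoxia at an adjusted p under 0.05, where 18.4% of genes did. These were KDM2A, KDM5C, KDM6A, JARID2, PHF2 and HSPBAP1, and RIOX2 fell (-0.62). Of the methyltransferases 5 of 19 rose there, EHMT2, DOT1L, SMYD3, KMT2C and EZH2 (0.58), and so did KDM1A (0.77), while KDM1B fell (-0.43). For the mean of the LNCaP arms PHF8 (0.29) and NSD3 (listed as WHSC1L1, 0.29) passed as well. In the ONECUT2 comparisons 1 PC3 gene of each list was called, both in hypoxia, PHF8 (-1.06) and SUV39H1 (1.29). Of all PC3 genes 3.55% were called lower and 3.95% higher there. In LNCaP cells JMJD1C (0.42), JMJD8 (-0.62) and SUV39H2 (-0.58) in hypoxia had an adjusted p under 0.05, KMT2C aside. So did SETD1B (0.63) in normoxia and KDM1B at both oxygen levels (0.54 and 0.60). Of 12283 LNCaP genes 826 passed higher and 592 lower in hypoxia, and 437 passed higher in normoxia. No test set these lists against the members.

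**Figure D4:**
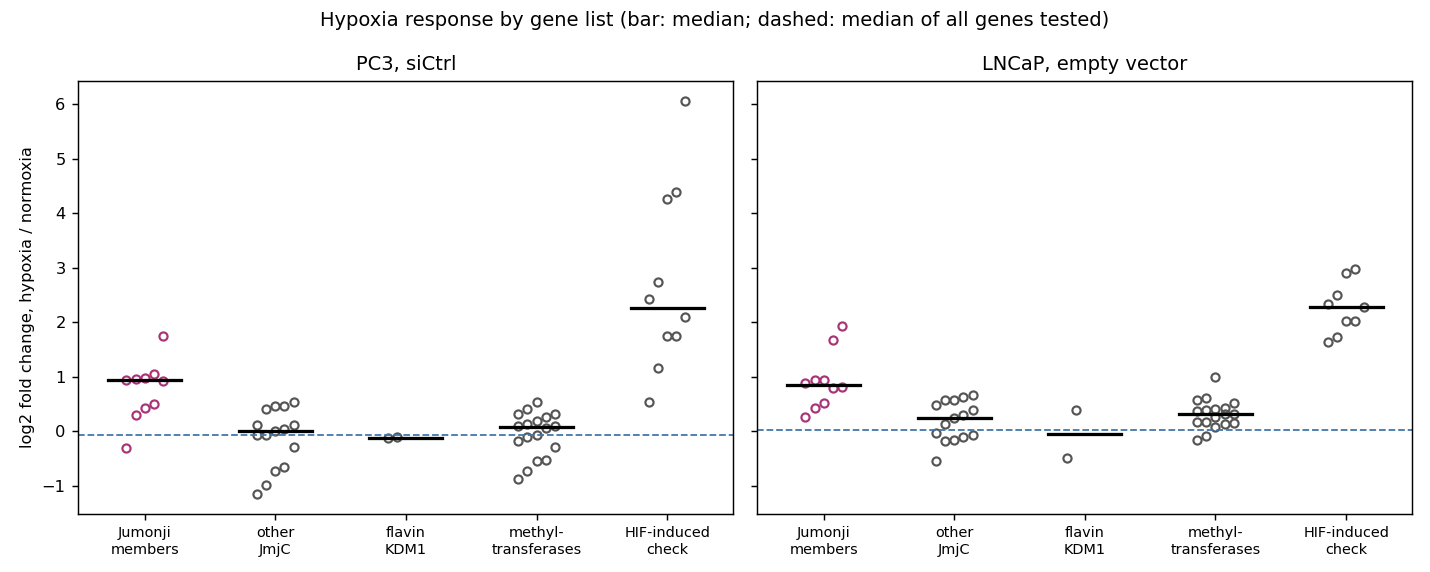
Log2 fold change of hypoxia over normoxia (y axis) of each gene in 5 lists in siCtrl PC3 cells (left) and LNCaP cells with the empty vector (right), with a bar at the list median and a dashed line at the median of all genes tested. The members' medians were 0.93 and 0.85, and KMT2C, listed at 0 in hypoxic LNCaP libraries, is counted in its median but not drawn.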

How the data were processed

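Of the series, the 16 RNA-Seq libraries were used and 12 ChIP-Seq samples were not. The deposited RPKM values were made by the authors: trimmed reads were aligned to hg19 with STAR 2.4.2a and RPKM per gene computed with Cufflinks 2.1.1 (versions from the submitters' processing notes). They were not scaled further. Read counts are not known, so relative depth was estimated from the steps between low RPKM. Groups came from the labels.

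For each line, genes reaching 1 RPKM in 2 or more of 8 libraries were fitted on log2(RPKM + 0.1) with limma 3.58.1 (R 4.3.3), 4 group means, a mean-variance trend and no block. 6 comparisons per line were made, with 120 tests of members in all, 2-sided, and p were adjusted by Benjamini-Hochberg over every gene of the fit. The members and lists were chosen with earlier results of these data known. All 10 members were named in every comparison, list genes where some comparison had a call or an adjusted p under 0.05, and the 5 genes most like a member called in both control arms. In siOC2 groups the replicate number is that of the siRNA, so it pairs siOC2 libraries only.

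Simulated data took the spread of each gene pooled over the 4 groups of a line. In PC3 data (siCtrl hypoxia over normoxia, 12214 genes), 160 of 200 genes changed by 1.5 on the log2 scale were called, with 321 unchanged ones. Of the changed genes 0 had an adjusted p under 0.05. The SD of the log2 difference between replicates was 0.52 and 0.50 in siCtrl and 0.86 and 1.04 in siOC2 groups. The simulated siCtrl libraries thus held more noise than the real ones, and these counts do not describe a fit of siCtrl groups alone. In LNCaP data simulated the same way (hypoxia over normoxia with the empty vector, 12283 genes), 197 were called with 40 unchanged ones, and 178 passed by adjusted p with 9 unchanged ones.

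Alternatives were upper-quartile scaling (75%), a pseudocount of 1, dropping the RPKM minimum or raising it to 5, only the groups compared, adjusted p for calls, a replicate block and leaving out each library. Leaving out the libraries with a relative depth under 0.5, a block with swapped siCtrl numbers in normoxia and the siRNA term were chosen after seeing the data. Of 18 other JmjC proteins and 20 methyltransferases, 16 and 19 symbols were found in the tables. Promoters were the 27305 RefSeq ones (GRCh38.p14) on the main chromosomes, the first start listed per symbol, and gene models were GENCODE on GRCh37. JMJD6 has no entry in the promoter table. The summed level of the LNCaP markers is not reported here. Opposite-strand exons cover 3.22% (RNF34) of the exonic bases of KDM2B and 0.399% (CCDC77) of those of KDM5A.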

Additional observations from a re-analysis of the deposited data

Results flagged for a closer look

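The PC3 interaction of KDM4C passed the call limits, at 1.03, though not at an adjusted p under 0.05. In PC3 cells the siCtrl over siOC2 difference of KDM4C changed direction between oxygen levels, from -0.51 in normoxia to 0.52 in hypoxia with no overlap of libraries at either. KDM2B did the same in PC3 cells (-0.50 and 0.43), and its interaction had an adjusted p of 0.9998 in limma. In LNCaP cells the ONECUT2 over empty vector difference changed direction for JMJD6 (0.30 in normoxia, -0.36 in hypoxia, interaction adjusted p = 0.210 in limma) and KDM3B (0.15 and -0.10, interaction adjusted p = 0.384).

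Between the cell lines 7 differences pointed in opposite directions with no overlap of libraries in either line, and since the tables of the lines were fitted apart the difference was not tested. They were 1 of 10 members for hypoxia in the control arm, where 11.9% of the 10948 genes tested in both lines did so, 0 in the altered arm (7.21% of genes), 3 for high over low ONECUT2 in normoxia (12%) and 3 in hypoxia (13.4%). Hypoxia over normoxia in the control arm was -0.32 in PC3 and 0.42 in LNCaP cells for KDM4A. High over low ONECUT2 in normoxia was -0.51 in PC3 and 0.15 in LNCaP cells for KDM3B, -0.56 and 0.40 for KDM5A, and -0.47 and 0.30 for JMJD6. High over low ONECUT2 in hypoxia was -0.75 in PC3 and 0.69 in LNCaP cells for KDM3A, -0.44 and 0.47 for KDM5B, and 0.52 and -0.30 for KDM4C. The lines also differ in how ONECUT2 was altered, by siRNA or by a vector.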

How the results depend on the processing

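Of 1814 member fold changes recomputed under the alternatives, 1732 kept their direction and their side of the call limits, 16 passed the limits only there, 12 lost the call and 54 changed sign, none of them (0) among called values. A fold change cannot move with another RPKM minimum, with only the groups compared, or with a block or the siRNA term. Nor can it move without a library from outside the comparison. There only the P can move, so the kept directions overstate how far they were tested. Of 194 counts of members called, 167 stayed within 1.5 times. The cause of the changes was not tested. With calls by adjusted p, the counts of members became 0 in siCtrl and 0 in siOC2 PC3 cells for hypoxia, 0 for the PC3 interaction, 9 with the empty vector, 7 with ONECUT2 and 9 for the mean of the LNCaP arms, and 1 in normoxia and 2 in hypoxia for ONECUT2 over empty vector. The PC3 interaction count was 0 with a pseudocount of 1, with upper-quartile scaling and without the shallow libraries, and the siCtrl hypoxia count was 1 without the shallow libraries. Leaving out 1 library gave 1 to 5 called members for hypoxia in siCtrl PC3 cells, 1 to 2 for the mean of the PC3 arms, 0 to 1 for siCtrl over siOC2 in normoxia, 0 to 2 for the PC3 interaction and 2 to 4 for hypoxia in LNCaP cells with the empty vector. With no limit on low RPKM the adjusted p in limma rose to 0.0629 for KDM3A in the mean of the PC3 arms, 0.0512 and 0.124 for KDM4C in hypoxia with the empty vector and with ONECUT2, 0.0511 for JMJD6 in the mean of the LNCaP arms and 0.0526 for KDM6B in hypoxia for ONECUT2 over empty vector, and fell to 0.0457 for KDM3B with the empty vector. With upper-quartile scaling it was 0.0341 for KDM5B in the mean of the PC3 arms and 0.0697 for KDM4C in hypoxia with ONECUT2. A group left with 1 library was assumed to vary like the others.

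With the replicate block the PC3 interaction count was 0 (KDM4C 1.03), and the block moved no other count of called members by over 1.5 times. By adjusted p in limma it took KDM3A for siCtrl hypoxia to 0.0330 and KDM6B for ONECUT2 over empty vector in hypoxia to 0.0553, and no other member across 0.05. Deviations of same-numbered libraries correlated at 0.62 between the siOC2 groups, which share siRNAs, and at -0.19 to 0.076 between the other PC3 groups and -0.065 to 0.27 between the LNCaP groups, so the numbers were not shown to pair other libraries. With the siCtrl numbers in normoxia swapped, the counts for PC3 hypoxia were 2 in siCtrl, 1 in siOC2 and 1 for the mean, and the interaction count was 1.

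Upper-quartile scaling moved the median of all genes by -0.11 for hypoxia with ONECUT2 and by 0.11 for ONECUT2 over empty vector in normoxia. It turned KDM3B in the first to -0.11, and in the second KDM3A to 0.035, KDM4A to 0.080 and KDM4C to 0.089. It turned KDM2B in hypoxia to 0.063, JMJD6 for siCtrl over siOC2 in hypoxia to -0.032, and the PC3 interactions of KDM3A, KDM4B and KDM5B to -0.072, -0.053 and -0.0089. Without the shallow libraries KDM6B in siCtrl hypoxia turned to -0.87, KDM4A for siCtrl over siOC2 in hypoxia to 0.052, and the interactions of KDM4A, KDM4B and KDM5B to 0.32, -0.16 and -0.032.

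Sign changes on leaving out 1 library ranged as follows. For siCtrl over siOC2 these were JMJD6 (-0.12 to 0.20), KDM5A (-0.29 to 0.15) and KDM6B (-1.11 to 0.76) in hypoxia, and KDM6B (-0.66 to 1.19) in normoxia. For PC3 hypoxia they were KDM2B (-0.12 to 0.23), KDM4C (-0.25 to 0.29), KDM5A (-0.15 to 0.17) and KDM6B (-0.20 to 1.65) in siOC2 and KDM6B (-0.65 to 1.22) in siCtrl. For the PC3 interaction they were KDM3A (-0.28 to 0.34), KDM3B (-0.027 to 0.37), KDM4A (-0.29 to 0.11), KDM4B (-0.37 to 0.46), KDM5B (-0.080 to 0.26) and KDM6B (-1.37 to 0.50). For ONECUT2 over empty vector they were KDM3A (-0.17 to 0.011), KDM4A (-0.15 to 0.082), KDM4B (-0.060 to 0.15), KDM4C (-0.31 to 0.26) and KDM5B (-0.086 to 0.23) in normoxia and KDM2B (-0.064 to 0.015) in hypoxia. For LNCaP hypoxia with ONECUT2 it was KDM3B (-0.072 to 0.078), and for the LNCaP interaction KDM4C (-0.56 to 0.015). In PC3 cells the 3 members of lowest RPKM, KDM4A, KDM4B and KDM6B, had the largest SE (0.34, 0.35 and 0.77).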
